A study of Saccharomyces cerevisiae with 18 samples.

Results

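Gene expression supported by the Rad6 P47T enzyme was measured by setting a yeast strain that carries this mutant enzyme against a strain with no RAD6 gene. These 2 strains gave 6 of the 18 RNA-seq libraries of the series, 3 cultures per strain, and the libraries were chosen by their strain labels alone. The P47T strain had its chromosomal RAD6 replaced by a KanMX cassette and carried RAD6 with the P47T substitution and a 3V5 epitope tag on a centromeric TRP plasmid. The rad6Δ strain had the same chromosomal replacement and carried the empty plasmid pRS314. Further strains serve below as points of comparison, all with the same chromosomal replacement: P43L and E49K carried the other point mutants on the plasmid, and the strain called WT carried wild-type Rad6-3V5. Per the labels every strain was Mat a and carried the markers trp1Δ, his3, ura3-52 and a leu2 allele, and was grown at 30 °C in synthetic medium without tryptophan. P47T and rad6Δ therefore differ in the plasmid insert, and in each of these strains that carries Rad6 the enzyme is tagged and plasmid-borne. The series also holds 3 libraries of a bre1Δ strain. They entered the shared statistical model and the principal components and are not compared here.

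Rad6 is a ubiquitin-conjugating enzyme of the nucleus and cytosol. With the ligase Bre1 it attaches ubiquitin to histone H2B in transcribed chromatin, a mark needed for full methylation of histone H3 by Set1 and Dot1. With the ligase Ubr1 it marks proteins with destabilizing N-terminal residues for the proteasome, and also the repressor of peptide transport, Cup9. With Rad18 it modifies PCNA at stalled replication forks. P43L, P47T and E49K lie in the beta-turn on the side of the enzyme away from its catalytic site, which the study set out to test.

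RAD6 (YGL058W, chrVII:393986-394504, plus strand, R64) is printed here at the substituted site because the whole comparison rests on it. The reference codons 40 to 52 (chrVII:394103-394141) follow, with codon 47, a proline codon that the P47T allele replaces with one for threonine, in capitals.
RAD6 codons 40-52: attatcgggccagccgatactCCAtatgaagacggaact
RAD6 had 147, 162 and 177 CPM (read counts scaled to a common library size with factors from the trimmed mean of M-values, TMM) in the P47T libraries, against 3.75, 4.36 and 4.77 CPM in the rad6Δ libraries. The 3 P47T values were far above the 3 rad6Δ values, as the labels require, although a few reads were counted for RAD6 in the deletion strain. The log2 fold change, given here and below with its standard error, was 5.24 ± 0.13 (edgeR quasi-likelihood test, Benjamini-Hochberg adjusted p = 3.09e-18). WT averaged 149 ± 6.82 CPM (SD, n = 3), and the difference of P47T from WT did not pass the threshold of 0.05 (log2 fold change 0.12 ± 0.09, adjusted p = 0.348).

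TRP1, the marker of the plasmid, differed between the strains too. It had 718, 631 and 698 CPM in the P47T libraries, against 365, 282 and 379 CPM in the rad6Δ libraries and 529, 619 and 546 CPM in the WT libraries. All P47T values were above all rad6Δ values (log2 fold change 0.997 ± 0.11, adjusted p = 1.08e-07). Whether plasmid number or marker activity moves with any other result was not tested. GEP7 (chrVII:394966-395829), the gene downstream of RAD6 on the opposite strand, had 40.7, 41.03 and 41.4 CPM in P47T, against 12.8, 12.6 and 12.4 CPM in rad6Δ (1.704 ± 0.16, adjusted p = 5.51e-08). PKP2, the gene upstream of RAD6, had 148, 145 and 163 CPM in P47T and 137, 147 and 129 CPM in rad6Δ, and its groups overlapped (0.14 ± 0.08, adjusted p = 0.152).

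Library totals ran from 7233934 to 11396251 counts in P47T and from 7104200 to 10800185 in rad6Δ. Nuclear noncoding genes took 16.9% to 19.2% of the counts in P47T, against 20.0% to 24.2% in rad6Δ. On the first principal component of the 18 libraries (40.7% of the variance) P47T lay at -14.1 to -12.7, rad6Δ at 21.8 to 22.2 and WT at -10.8 to -9.31. On the second (14.99%) the third P47T library lay at 3.71, apart from the other P47T libraries at 12.4 and 9.96. The mating type of the cells went against the label. Genes that mark alpha cells (MF(ALPHA)1, MF(ALPHA)2, STE3, SAG1) summed to 2265 to 2826 CPM in P47T and 2396 to 2548 CPM in rad6Δ, whereas the pheromone genes of a cells, MFA1 and MFA2, did not exceed 2.01 CPM in any of these libraries. The 6 markers of a cells summed to 38.5 to 39.8 CPM in P47T and 54.4 to 58.9 CPM in rad6Δ. The strains are therefore called by their RAD6 genotype only.

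P47T and rad6Δ differed across a large share of the genome. Of 5630 genes tested, 2943 (52.3%) passed the threshold, of which 1459 (25.9%) were higher and 1484 (26.4%) lower in P47T. The values of the 2 groups did not overlap for 3360 genes (59.7%), and 2834 genes (50.3%) met both conditions. Most called differences were small, with a median size of 0.45 on the log2 scale. At least 2-fold changes were called for 309 genes (5.49%), 95 higher (1.69%) and 214 lower (3.8%). The split between directions depends on the scaling of the libraries. Scaled by library totals alone, the median of all genes moved to -0.10, against -0.01 with TMM, and 1056 genes were called higher and 1816 lower.

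Genes at least 2-fold higher in P47T and those at least 2-fold lower differed in their level in WT. Per kilobase of gene, the 95 higher genes had a median of 68.3 CPM in WT (quartiles 26.2 and 200.03), the 214 lower genes a median of 3.57 CPM (quartiles 1.53 and 10.6), and all tested genes a median of 40.4 CPM (quartiles 20.1 and 99.5). The large decreases in P47T relative to rad6Δ were mostly those of genes that WT expressed weakly. The filter on low counts bears on this, because a gene weak in P47T and WT can pass it through its level in rad6Δ. A gene weak in rad6Δ and WT can likewise pass through its level in P47T. How much of the difference in WT level follows from the filter was not tested.

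**Figure D1:**
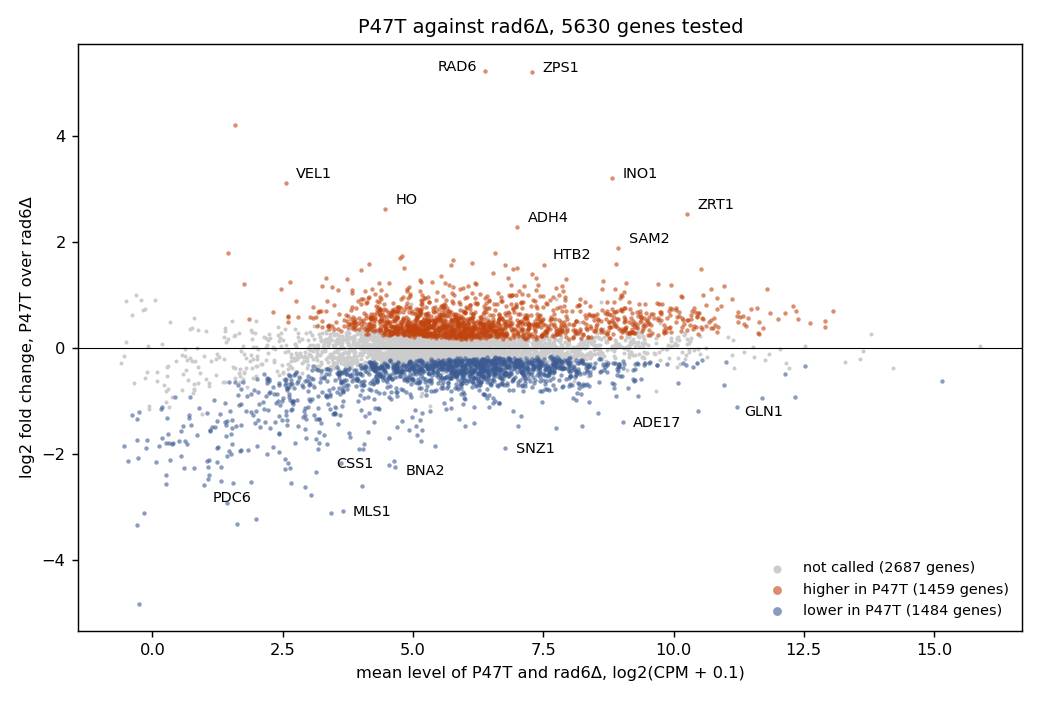
Log2 fold change of P47T over rad6Δ for each of the 5630 genes tested, against the mean level of both strains as log2 of CPM plus 0.1, with genes called higher in orange, lower in blue and not called in grey. RAD6 (5.24) and ZPS1 (5.22) lie at the top, with INO1 (3.21), HO (2.62), ZRT1 (2.54) and ADH4 (2.28) below them, and most of the large decreases lie at low levels on the left.

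Among the largest increases in P47T were zinc genes and genes of inositol and phospholipid synthesis, along with HO and SAM2 from neither group. Both groups have known regulatory elements, so the 300 bases before the start codons of the 4 members with the largest changes are printed (RefSeq genome, R64, 5′ to 3′ toward the start codon), with matches on either strand to the zinc-responsive element and the inositol-choline element CATGTGAA in capitals.
ZPS1 (chrXV:34358-34657, plus strand): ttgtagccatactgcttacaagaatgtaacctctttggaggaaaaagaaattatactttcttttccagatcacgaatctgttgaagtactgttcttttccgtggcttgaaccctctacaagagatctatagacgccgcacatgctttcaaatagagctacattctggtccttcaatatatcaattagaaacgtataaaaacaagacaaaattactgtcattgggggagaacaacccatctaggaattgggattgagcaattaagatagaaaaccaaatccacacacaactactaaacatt
INO1 (chrX:135934-136233, minus strand): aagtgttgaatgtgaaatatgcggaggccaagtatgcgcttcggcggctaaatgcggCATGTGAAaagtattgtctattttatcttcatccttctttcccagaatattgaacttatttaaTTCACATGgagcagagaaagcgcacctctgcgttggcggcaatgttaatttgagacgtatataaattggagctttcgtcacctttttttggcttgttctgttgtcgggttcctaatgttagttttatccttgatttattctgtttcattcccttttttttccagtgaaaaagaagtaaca
VEL1 (chrVII:10810-11109, plus strand): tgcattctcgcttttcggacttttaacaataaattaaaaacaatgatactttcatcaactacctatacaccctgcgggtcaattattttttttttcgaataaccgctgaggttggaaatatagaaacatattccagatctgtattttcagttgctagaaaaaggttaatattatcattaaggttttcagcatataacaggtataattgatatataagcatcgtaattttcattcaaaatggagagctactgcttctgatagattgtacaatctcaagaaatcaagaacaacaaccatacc
ZRT1 (chrVII:20678-20977, plus strand): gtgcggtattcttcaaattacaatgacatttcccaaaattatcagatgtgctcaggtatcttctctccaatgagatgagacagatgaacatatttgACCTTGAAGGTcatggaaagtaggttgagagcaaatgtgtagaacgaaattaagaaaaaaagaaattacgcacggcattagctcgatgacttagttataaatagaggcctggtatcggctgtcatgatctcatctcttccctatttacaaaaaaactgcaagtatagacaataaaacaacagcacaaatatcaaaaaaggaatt
INO1 held 2 matches to the inositol-choline element, beginning 243 and 180 bases upstream of the start codon, and ZRT1 held a zinc-responsive element 204 bases upstream. ZPS1 and VEL1 held no exact match to either pattern in this window. Over the genome, an exact match to the zinc pattern was in 6 of 5513 promoters of this length (0.109%). Of the 17 promoters of the zinc list, 2 held a match (ZRT1 and ZRG17), and the ZAP1 promoter held 0. The pattern was fixed except at its middle base, so a site differing at any other base was not counted. Such variant sites were not searched, so these counts do not show which zinc genes lack a zinc-responsive element. The inositol element was in 50 of 5513 (0.907%) and in 11 of the 17 of the inositol list (64.7%). The core CACCC of the iron regulators Aft1 and Aft2, searched on both strands as well, was in 1081 of 5513 (19.6%) and in 24 of the 29 of the iron list (82.8%).

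Zinc genes were higher in P47T. Their activator, Zap1, binds the zinc-responsive element when zinc is scarce and also drives its own gene. Of 17 zinc genes tested, 14 rose and 1 fell, with a median log2 fold change of 0.79, against -0.01 over all genes. ZPS1 (chrXV:34658-35407), a cell surface protein gene, had 323, 296 and 287 CPM in the P47T libraries, against 7.63, 7.24 and 9.81 CPM in the rad6Δ libraries. The change was 5.22 ± 0.23 (adjusted p = 2.06e-11). Only RAD6 exceeded it among genes with their own symbol at 10 CPM or more whose groups did not overlap. WT had 252, 179.9 and 249.9 CPM, and P47T did not pass the test against WT (0.41 ± 0.17, adjusted p = 0.0827).

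ZRT1, the high-affinity zinc transporter, had 2133, 2138 and 1965 CPM in P47T, against 376, 366 and 333 CPM in rad6Δ. Its groups lay far apart (2.54 ± 0.10, adjusted p = 2.21e-14), and P47T was also above the 1435, 1453 and 1667 CPM of WT (0.45 ± 0.10, adjusted p = 0.00159). The low-affinity transporter ZRT2 averaged 161 ± 2.83 CPM in P47T and 89.8 ± 5.82 CPM in rad6Δ (SD, n = 3 each). The regulator itself, ZAP1, had 109.7, 111 and 94.8 CPM in P47T, against 36.01, 34.4 and 33.6 CPM in rad6Δ (1.601 ± 0.19, adjusted p = 4.27e-06). FET4, a low-affinity iron and zinc transporter, averaged 319 ± 17.6 CPM in P47T and 152 ± 11.8 CPM in rad6Δ, and ADH4, the zinc-controlled alcohol dehydrogenase, 212 ± 7.82 and 43.5 ± 1.48 CPM. VEL1, a gene with a near-identical copy whose reads may be split, had 8.4, 9.95 and 12.9 CPM in P47T and 1.17, 1.13 and 1.23 CPM in rad6Δ. VEL1 (chrVII:11110-11730), ADH4 (chrVII:15159-16307) and ZRT1 (chrVII:20978-22108) lie near one another toward the left end of chromosome VII. ZRG8 was the list's exception, with 35.3 ± 2.57 CPM in P47T and 46.5 ± 4.33 CPM in rad6Δ, and the zinc-responsive peroxiredoxin gene TSA1 did not pass the test (0.02 ± 0.09, adjusted p = 0.899). Against WT, with the same P47T libraries, 6 zinc genes were higher (11 when only the libraries of these 2 strains were fitted) and 0 lower. Over all genes, 1569 (27.9%) passed against WT, 799 (14.2%) higher and 770 (13.7%) lower, or 407 and 1297 with library totals alone. Without the first P47T library 959 passed, and without the second 1017.

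Genes of inositol and phospholipid synthesis were higher in P47T almost without exception. Ino2 and Ino4 activate these genes through the inositol-choline element, and Opi1 represses them when inositol is plentiful. Of 17 tested, 16 rose and 0 fell (median log2 fold change 0.98). INO1 (chrX:134332-135933), which encodes inositol-3-phosphate synthase, had 886, 839.6 and 725 CPM in P47T, against 98.2, 85.7 and 80.1 CPM in rad6Δ. Every P47T value was above every rad6Δ value by a wide margin (3.21 ± 0.11, adjusted p = 8.47e-16). WT had 978, 936 and 952 CPM, all above P47T, yet the difference did not pass the threshold (-0.23 ± 0.10, adjusted p = 0.0831).

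The inositol transporter gene ITR1 had 2176, 2176 and 2195 CPM in P47T, against 790.2, 789 and 729 CPM in rad6Δ (1.504 ± 0.09, adjusted p = 9.72e-12). PSD1, for the mitochondrial phosphatidylserine decarboxylase, averaged 178 ± 5.82 CPM in P47T and 62.9 ± 2.297 CPM in rad6Δ, and OPI3, for a phospholipid methyltransferase, 713 ± 141 and 238 ± 22.4 CPM. The activator gene INO2 had 47.5, 39.7 and 38.4 CPM in P47T, against 12.9, 15.8 and 15.1 CPM in rad6Δ (1.52 ± 0.11, adjusted p = 4.19e-10) and 22.97, 21.3 and 19.02 CPM in WT (0.98 ± 0.11, adjusted p = 7.52e-06), so here P47T was above both. The repressor gene OPI1 was higher in P47T as well (0.74 ± 0.08, adjusted p = 7e-08). CHO2 was the member that did not pass, with 598 ± 75.3 CPM in P47T and 549.6 ± 45.1 CPM in rad6Δ (0.12 ± 0.10, adjusted p = 0.305).

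**Figure D2:**
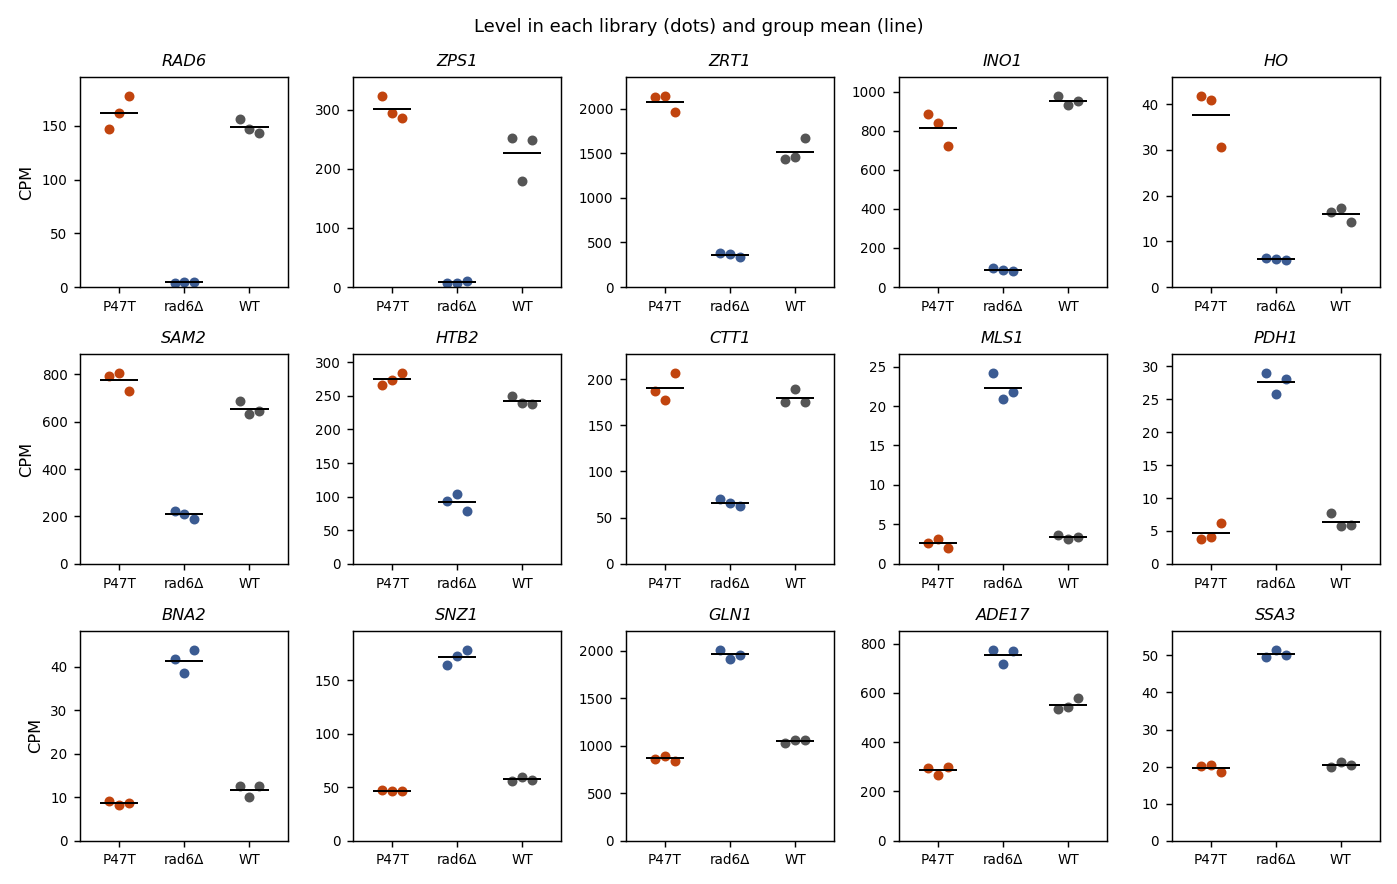
Level in CPM of 15 genes in each library (dots) with the group mean (line), for P47T, rad6Δ and WT from left to right, each panel with its own axis from 0. In every panel the 3 P47T values and the 3 rad6Δ values do not overlap, with P47T higher from RAD6 to CTT1 and lower from MLS1 to SSA3.

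Iron uptake genes were mostly higher in P47T. Aft1 and Aft2 switch them on when iron is scarce. Of 29 genes tested, 17 rose and 3 fell (median 0.28). FET3, the multicopper oxidase of high-affinity uptake, had 1202, 1208 and 1101 CPM in P47T, against 516, 519 and 471 CPM in rad6Δ (1.22 ± 0.09, adjusted p = 2.3e-10). The cell wall mannoprotein gene FIT2 had 103, 83.6 and 89.9 CPM in P47T, against 42.9, 41.8 and 37.05 CPM in rad6Δ (1.18 ± 0.11, adjusted p = 1.12e-08). All these values were separate between the strains. The siderophore transporter gene ARN1 averaged 48.98 ± 3.38 CPM in P47T and 25.4 ± 1.33 CPM in rad6Δ, and TIS11, which encodes an mRNA-binding protein that lowers iron-using transcripts, 47.8 ± 3.32 and 22.6 ± 0.786 CPM. HMX1, the heme oxygenase gene, ran the other way, at 25.8, 26.7 and 28.1 CPM in P47T, against 36.5, 37.9 and 37.5 CPM in rad6Δ (-0.48 ± 0.10, adjusted p = 0.0004) and 46.7, 45.6 and 45.2 CPM in WT. ISU2 and FRE6 also fell (-0.40 and -0.24), and AFT1 and AFT2 themselves did not pass (-0.07 and -0.05 on the log2 scale).

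Histone genes, the substrate side of Rad6, were higher in P47T. Of 11 tested, 9 rose and 1 fell (median 0.61), and the summed histone level was 3194 to 3394 CPM in P47T, against 1942 to 2071 CPM in rad6Δ and 3317 to 3496 CPM in WT. HTB2, for histone H2B, had 266, 274 and 284 CPM in P47T, against 93.4, 104 and 79 CPM in rad6Δ (1.57 ± 0.09, adjusted p = 6.55e-12). The second H2B gene, HTB1, had 365, 372 and 407 CPM in P47T, against 260.2, 260.0 and 252 CPM in rad6Δ (0.57 ± 0.08, adjusted p = 2.51e-06). In both H2B genes every P47T value was above every rad6Δ value. HTA1 and HTA2, for H2A, averaged 563 ± 79.1 and 225 ± 60.7 CPM in P47T, against 235 ± 19.9 and 85.7 ± 11.6 CPM in rad6Δ. HHF1 and HHF2, for H4, averaged 327 ± 7.46 and 288 ± 9.65 CPM in P47T, against 201 ± 10.96 and 167 ± 2.26 CPM in rad6Δ. Reads of such near-identical pairs may be split between the copies. CSE4, for the centromeric H3 variant, was the member that fell (-0.49 ± 0.11, adjusted p = 0.000767). HTZ1, for the H2A variant, was higher by 0.23 ± 0.09 (adjusted p = 0.0316), a call lost with library totals alone and without any of 4 single libraries (first or second P47T, the first or the third rad6Δ), where adjusted p ran from 0.0647 to 0.292. Against WT, 1 histone gene was higher and 3 were lower, or 5 lower with library totals alone. In these bulk samples, fewer cells making histone RNA and less of it per cell cannot be told apart.

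The genes of H2B ubiquitination and of the complexes that lay, read and remove the mark moved in both directions. Of 23 tested, 7 rose and 6 fell (median 0.01; 4 rose with library totals alone), close to the 25.9% and 26.4% of all genes. BRE1, the ligase, had 139, 143 and 140.1 CPM in P47T and 125, 142 and 141 CPM in rad6Δ, and its groups overlapped (0.05 ± 0.07, adjusted p = 0.576). Members of the Paf1 complex, which couples Rad6 and Bre1 to RNA polymerase II, split: PAF1 averaged 98.2 ± 9.62 CPM in P47T and 71.5 ± 4.87 CPM in rad6Δ (0.46 ± 0.09, adjusted p = 0.000179), while LEO1 averaged 13.8 ± 0.0951 and 21.99 ± 1.105 CPM (-0.66 ± 0.18, adjusted p = 0.00364). POB3, of the histone chaperone FACT, and BRE2, of the Set1 methyltransferase complex, fell (-0.64 and -0.61), and SWD1, also of the Set1 complex, rose (0.44).

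Genes of the Ubr1 pathway and of peptide import were more often lower than higher in P47T. PTR2, the di- and tripeptide transporter gene, had 3.72, 6.53 and 2.94 CPM in P47T, against 18.2, 12.9 and 16.2 CPM in rad6Δ, with no overlap (-1.81 ± 0.21, adjusted p = 4.26e-07). WT had 2.96, 3.75 and 2.07 CPM, and P47T did not pass against it (0.55 ± 0.28, adjusted p = 0.148). CUP9, the gene of the PTR2 repressor, averaged 54.7 ± 3.35 CPM in P47T and 40.8 ± 1.44 CPM in rad6Δ (0.42 ± 0.10, adjusted p = 0.001), and UBR1 212 ± 12.3 and 305 ± 17.5 CPM (-0.52 ± 0.08, adjusted p = 1.53e-05). The allantoate and dipeptide permease gene DAL5 and the oligopeptide transporter gene OPT2 also fell (-0.65 and -0.64). In all, 3 of 16 members rose and 8 fell (median -0.23), and 1 rose without the first rad6Δ library or with library totals alone.

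Genes for storage carbohydrate were higher in P47T than in rad6Δ and lower than in WT. Glycogen and trehalose are laid down as nutrients run low. Of 20 tested, 12 rose and 2 fell against rad6Δ (median 0.30; 1 fell without the first or the second P47T library or the second or the third rad6Δ library), whereas against WT 0 rose and 12 fell (median -0.31). These 2 comparisons share the P47T libraries. With library totals alone, 8 rose and 3 fell against rad6Δ (median 0.21). PGM2, for phosphoglucomutase, had 760.4, 709 and 821 CPM in P47T, against 358, 315 and 305 CPM in rad6Δ (1.23 ± 0.10, adjusted p = 1.27e-09) and 991, 1120.3 and 1013 CPM in WT (-0.45 ± 0.09, adjusted p = 0.0016). Its P47T values lay between the other strains with no overlap. GSY1, for glycogen synthase, averaged 685 ± 68.6 CPM in P47T, 346 ± 28.4 CPM in rad6Δ and 834 ± 11.5 CPM in WT. GLC3, for the branching enzyme, averaged 544 ± 54.02, 296 ± 15.1 and 685 ± 46.2 CPM in the same order of strains. GLG2, one of the glycogenin genes, fell against rad6Δ (-0.55).

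General stress genes driven by Msn2 and Msn4 were split, with 16 of 30 higher, 5 lower and a median of 0.35. Without the first P47T library 3 were lower, and without the first rad6Δ library 2. Without the third P47T library 6 were lower. With library totals alone 14 were higher and 7 lower (median 0.25). CTT1, for cytosolic catalase, had 187, 178 and 206 CPM in P47T, against 70.2, 65.5 and 62.9 CPM in rad6Δ (1.52 ± 0.09, adjusted p = 3.08e-11). GPD1, for the glycerol-producing dehydrogenase, averaged 374 ± 5.39 CPM in P47T and 212 ± 6.09 CPM in rad6Δ, and ALD3, for a stress-induced aldehyde dehydrogenase, 28.4 ± 1.89 and 12.1 ± 1.66 CPM. HSP12, for a membrane-protecting small heat-shock protein, ran the other way, at 236, 217 and 214 CPM in P47T, against 496, 392 and 451 CPM in rad6Δ (-1.004 ± 0.10, adjusted p = 5.73e-08). MSN2 and MSN4 did not pass (0.10 and -0.16). Among heat-shock chaperones 3 of 25 rose and 10 fell (median -0.17). Without the third P47T library 7 fell, with a median of -0.10, and with library totals alone 1 rose and 13 fell. The Hsp70 gene SSA3 had 20.1, 20.5 and 18.6 CPM in P47T, against 49.5, 51.4 and 49.99 CPM in rad6Δ (-1.35 ± 0.09, adjusted p = 9.42e-11). The Hsp90 partners CPR6 and STI1 fell too (-0.56 and -0.45), while CPR3, for a mitochondrial cyclophilin, rose (0.69).

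Cytosolic ribosomal protein genes were higher in P47T nearly throughout. Of 132 tested, 122 rose and 0 fell (median 0.53), and with library totals alone 108 rose and 0 fell. Against WT, 94 rose and 0 fell (median 0.39). RPL9A, for a large subunit protein, had 1543, 1344 and 1244 CPM in P47T, against 706, 562 and 535 CPM in rad6Δ (1.196 ± 0.14, adjusted p = 3.68e-07) and 825, 830.2 and 841 CPM in WT. RPS9A, for a small subunit protein, had 219.6, 226 and 227 CPM in P47T, against 95.6, 104 and 114 CPM in rad6Δ (1.103 ± 0.08, adjusted p = 4.6e-10) and 184, 182 and 166 CPM in WT. In each case the P47T values were the highest of the 3 strains, with no overlap. RPL8A averaged 665 ± 18.2 CPM in P47T and 343 ± 21.8 CPM in rad6Δ, and RPL22B 159 ± 4.43 and 78.8 ± 6.81 CPM. Most of these genes have a near-identical copy, so single values are uncertain. RPL15B had the lowest fold change and did not pass (-0.18 ± 0.11, adjusted p = 0.203).

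Ribosome assembly genes did not follow the ribosomal proteins. Of 94 biogenesis factors, 6 rose and 34 fell in P47T relative to rad6Δ (median -0.17), and the number that fell was 22, with a median of -0.10, without the second rad6Δ library. With library totals alone 2 rose. Relative to WT, 31 rose and 2 fell (median 0.16). NOP2, for an rRNA methyltransferase, had 209, 210.5 and 217 CPM in P47T, against 358, 387 and 407 CPM in rad6Δ (-0.86 ± 0.08, adjusted p = 2.38e-08) and 218, 245 and 224 CPM in WT. NOP12 and PWP1, needed for large subunit assembly, averaged 107 ± 7.65 and 104 ± 5.39 CPM in P47T, against 175 ± 6.13 and 167 ± 3.94 CPM in rad6Δ. UTP22, for a small subunit factor, was the highest (0.43 ± 0.09). Subunits and factors of RNA polymerases I and III showed the same arrangement of counts, with 2 of 23 higher and 9 lower than in rad6Δ, and 14 higher and 0 lower than in WT. RPC82, of RNA polymerase III, averaged 56.4 ± 3.55 CPM in P47T, 91.7 ± 5.77 CPM in rad6Δ and 44.9 ± 1.01 CPM in WT. The count higher than in WT was 6 with library totals alone.

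**Figure D3:**
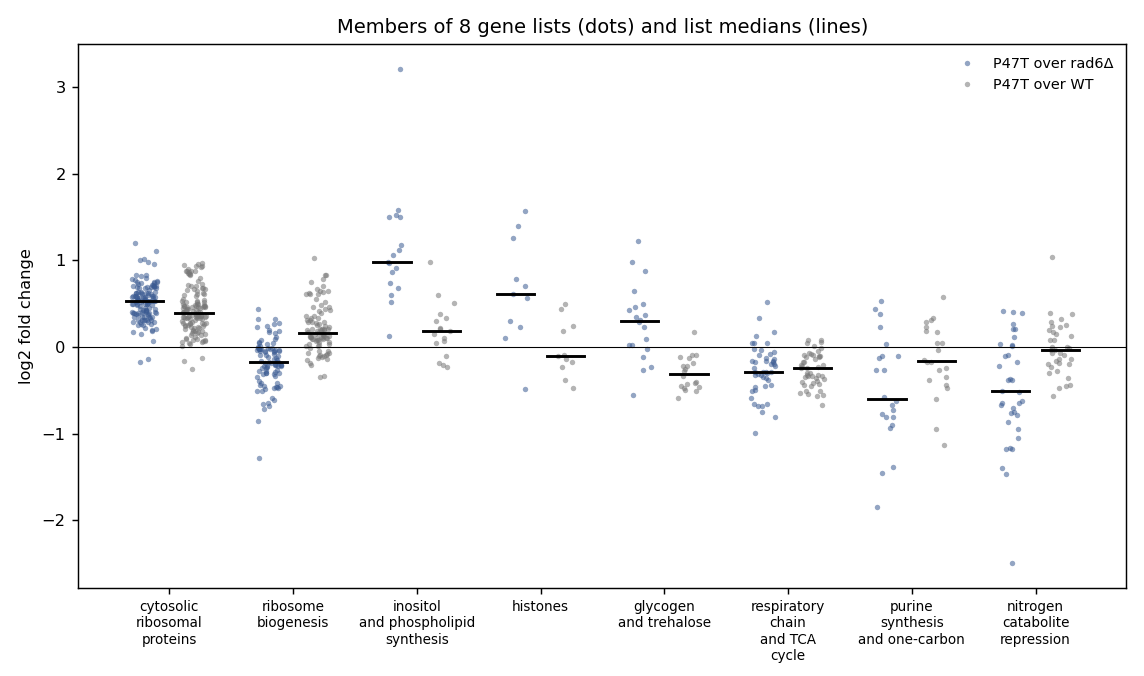
Log2 fold change of each tested member (dots) of 8 gene lists, with the list median (line), for P47T over rad6Δ (blue) and P47T over WT (grey), 2 comparisons that share the P47T libraries. Ribosomal protein medians lie above 0 in both (0.53 and 0.39), ribosome biogenesis medians lie at -0.17 and 0.16, and storage carbohydrate medians at 0.30 and -0.31.

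Respiratory genes were lower in P47T than in rad6Δ. Of 47 genes of the respiratory chain, ATP synthase and tricarboxylic acid (TCA) cycle, 2 rose and 24 fell (median -0.28), and against WT 0 rose and 24 fell. SDH2, the iron-sulfur subunit gene of succinate dehydrogenase, had 139, 121 and 120.4 CPM in P47T, against 222, 224 and 219 CPM in rad6Δ (-0.81 ± 0.08, adjusted p = 1.99e-08) and 186, 152 and 166 CPM in WT. IDH2 and IDH1, for isocitrate dehydrogenase, averaged 217 ± 2.17 and 110.0 ± 4.19 CPM in P47T, against 366 ± 21.4 and 174 ± 15.4 CPM in rad6Δ. QCR2, of complex III, averaged 225 ± 8.68 CPM in P47T and 360.4 ± 19.3 CPM in rad6Δ. The members that rose were HAP4, the activator of respiratory genes (0.34 ± 0.08), and COX5B, the isoform of a cytochrome oxidase subunit linked to low oxygen (0.52 ± 0.13).

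Transcripts of the mitochondrial genome took 1.03% to 1.164% of counts in P47T, against 1.68% to 2.05% in rad6Δ and 1.56% to 1.61% in WT. Of 28 mitochondrial genes tested, 0 rose and 8 fell (median -0.46), beside 26.4% lower over all genes. In the list of 21 of them, 0 rose and 8 fell (median -0.63), and 1 rose without the third P47T library. COX1 had 483, 507 and 336 CPM in P47T, against 799.9, 1092 and 592 CPM in rad6Δ (-0.91 ± 0.19, adjusted p = 0.000745). AI2, encoded in an intron of COX1, had 2275, 2344 and 2219 against 4423, 4455 and 4147 CPM. The 2 genes overlap, and whether reads were counted for both is not known. COB, for cytochrome b, had 243, 245 and 152 CPM in P47T and 356, 419 and 213 CPM in rad6Δ, with overlap, and did not pass (-0.63 ± 0.37, adjusted p = 0.173). With the replicate number as a block and these 6 libraries alone, COB was called (-0.59, adjusted p = 5.8e-06), and so was the overlapping BI4 (adjusted p = 0.00602, against 0.122 without the block). Mitochondrial RNA lacks the long poly(A) tails that poly(A) selection captures, and how much of these shares follows capture was not tested.

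Genes of the glyoxylate cycle, gluconeogenesis and the use of carbon sources other than glucose were more often lower than higher in P47T, and several were among the largest decreases. Glucose represses them, and Adr1 and Cat8 activate them when glucose runs out. Of 37 tested, 6 rose and 25 fell (median -0.51). MLS1, for malate synthase of the glyoxylate cycle, had 2.67, 3.21 and 1.96 CPM in P47T, against 24.2, 20.8 and 21.8 CPM in rad6Δ (-3.06 ± 0.17, adjusted p = 4.52e-12). PDH1, for a methylcitrate dehydratase, had 3.82, 4.09 and 6.16 CPM in P47T, against 28.98, 25.8 and 28.1 CPM in rad6Δ (-2.59 ± 0.16, adjusted p = 2.73e-11). POT1, for the thiolase of fatty acid oxidation, had 2.77, 1.88 and 1.54 CPM in P47T, against 15.1, 12.7 and 11.2 CPM in rad6Δ (-2.61 ± 0.23, adjusted p = 5.8e-09). For all 3 genes every P47T value was below every rad6Δ value, and the WT means were 3.43, 6.42 and 3.12 CPM. The activator gene ADR1 averaged 68.3 ± 6.01 CPM in P47T, 189 ± 11.2 CPM in rad6Δ and 103 ± 3.24 CPM in WT, and MDH2, for the cytosolic malate dehydrogenase, 224 ± 5.75, 522 ± 11.7 and 328 ± 9.64 CPM. In both genes P47T was lowest, past the threshold against each (-0.59 and -0.55 against WT). SDH9, for a minor copy of the succinate dehydrogenase flavoprotein and not of this list, averaged 2.97 ± 1.31 CPM in P47T and 14.5 ± 1.53 CPM in rad6Δ (-2.34 ± 0.24, adjusted p = 9.39e-08). Among members that rose were ALD6, for the acetate-forming aldehyde dehydrogenase (1.12 ± 0.10), and CIT2, for peroxisomal citrate synthase (0.88 ± 0.11).

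Glycolytic genes leaned the other way, with 10 of 23 higher and 3 lower (median 0.23). The median was 0.12 without the first P47T library and 0.14 with library totals alone. TDH2, for a glyceraldehyde-3-phosphate dehydrogenase with near-identical copies, averaged 1769 ± 177 CPM in P47T and 1119 ± 33.4 CPM in rad6Δ, and ADH5, for a minor alcohol dehydrogenase, 240.2 ± 20.5 and 121 ± 9.35 CPM. PDC6, the weakly expressed pyruvate decarboxylase gene, had 2.195, 1.33 and 1.82 CPM in P47T, against 10.4, 9.68 and 11.7 CPM in rad6Δ (-2.54 ± 0.23, adjusted p = 1.26e-08). Of 20 hexose transporter and glucose sensing genes 5 rose, close to the 25.9% of all genes, and 10 fell, against 26.4%. With at least 10 CPM required in 3 libraries, 5 fell. With library totals alone 2 rose, and without the second rad6Δ library 3 rose. The glucose sensor genes RGT2 and SNF3 fell (-0.54 and -0.47), and MTH1, for a repressor of hexose transport, rose to 221, 205 and 264 CPM in P47T, against 109.6, 128 and 108 CPM in rad6Δ (0.99 ± 0.10, adjusted p = 4.04e-08).

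Genes used when preferred nitrogen sources are short were lower in P47T. Of 36 tested, 3 rose (6 with the replicate block on these 6 libraries) and 19 fell (median -0.51). GLN1, for glutamine synthetase, had 863, 897 and 844 CPM in P47T, against 2007, 1916 and 1959 CPM in rad6Δ (-1.18 ± 0.09, adjusted p = 5.18e-10) and 1032, 1062 and 1056 CPM in WT (-0.27 ± 0.09, adjusted p = 0.023). CAR1, for arginase, averaged 73.5 ± 4.73 CPM in P47T and 167 ± 15.5 CPM in rad6Δ, the ammonium permease gene MEP2 24.7 ± 3.301 and 55.8 ± 1.51 CPM, and GDH3, for a glutamate dehydrogenase, 10.5 ± 0.639 and 27.5 ± 1.58 CPM. The groups of these genes did not overlap. The amino acid permease list was divided, 7 of 20 higher and 9 lower, beside 25.9% and 26.4% of all genes. DIP5, for the acidic amino acid permease, averaged 6.799 ± 1.64 CPM in P47T and 25.8 ± 2.67 CPM in rad6Δ (-1.91 ± 0.15, adjusted p = 1.48e-09). GNP1, for the glutamine permease, averaged 94.3 ± 15.1 and 45.95 ± 3.52 CPM (1.04 ± 0.13, adjusted p = 1.57e-06).

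Amino acid synthesis genes controlled by Gcn4, the activator induced when amino acids are short, were mostly higher. Of 56 tested, 34 rose and 8 fell (median 0.31), and with library totals alone 13 fell. ARG1, for argininosuccinate synthetase, had 1108, 1093 and 961 CPM in P47T, against 603, 594 and 549 CPM in rad6Δ (0.86 ± 0.09, adjusted p = 9.32e-08). LYS21, for homocitrate synthase, averaged 321 ± 6.21 CPM in P47T and 163 ± 5.8 CPM in rad6Δ, and HIS1, of histidine synthesis, 599.8 ± 40.03 and 327 ± 15.4 CPM. BAT2, for the cytosolic branched-chain aminotransferase, fell (-1.23 ± 0.09), and GCN4 itself did not pass (-0.17 ± 0.09, adjusted p = 0.113). TRP1, the plasmid marker, belongs to this list, while trp1 is deleted from the chromosome per the labels. In the sulfate and methionine list 8 of 30 rose and 9 fell, close to the 25.9% and 26.4% of all genes. With library totals alone 14 fell, and with at least 10 CPM required in 3 libraries 5 fell. SAM2, for S-adenosylmethionine synthetase, stood out, with 792, 804 and 731 CPM in P47T, against 224, 211 and 191 CPM in rad6Δ (1.89 ± 0.09, adjusted p = 2.48e-13). The methionine genes MET6 and MET13 rose as well (0.75 and 0.91), whereas MET32, for a regulator of the pathway, fell (-1.49).

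Purine synthesis genes were mostly lower. Of 22 purine and one-carbon genes, 4 rose and 13 fell (median -0.60). ADE17, for the enzyme of the last steps to inosine monophosphate, had 294, 267 and 301 CPM in P47T, against 774, 719 and 769 CPM in rad6Δ (-1.39 ± 0.09, adjusted p = 4.05e-11) and 536, 542 and 579.9 CPM in WT (-0.94 ± 0.09, adjusted p = 8.84e-07). MTD1, for a methylenetetrahydrofolate dehydrogenase, averaged 161 ± 27.8 CPM in P47T, 443 ± 22.6 CPM in rad6Δ and 353 ± 20.3 CPM in WT. For both genes P47T was the lowest of the 3 strains. SNZ1, of vitamin B6 synthesis, had 47.7, 46.2 and 46.3 CPM in P47T, against 164, 173 and 178 CPM in rad6Δ (-1.88 ± 0.07, adjusted p = 2.21e-14). Its divergent neighbour SNO1 fell too (-1.49 ± 0.10), within a thiamine and vitamin B6 list of which 6 of 22 rose and 9 fell. Over all genes 25.9% rose, close to the share of this list, and 26.4% fell. BNA2, which opens the path from tryptophan to NAD, had 9.16, 8.18 and 8.68 CPM in P47T, against 41.8, 38.6 and 43.9 CPM in rad6Δ (-2.25 ± 0.11, adjusted p = 1.75e-12). Phosphate genes, induced by Pho4 when phosphate is short, were mixed: 4 of 25 rose and 11 fell, or 7 fell with at least 10 CPM required in 3 libraries. Without the second P47T library 2 rose. PHO5, for the secreted acid phosphatase, averaged 18.9 ± 2.53 CPM in P47T and 31.97 ± 0.746 CPM in rad6Δ (-0.75 ± 0.10, adjusted p = 3.52e-06), and the transporter gene PHO84, near the lower limit of detection, 0.839 ± 0.122 and 3.91 ± 0.559 CPM.

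Of 28 sterol synthesis genes, 17 rose in P47T, 0 fell and 11 did not pass (median 0.40). Without the third rad6Δ library 1 fell, and with library totals alone 2. Relative to WT, 12 were higher and 0 lower. ERG3, for a sterol desaturase, had 178, 173 and 155 CPM in P47T, against 87.98, 88.3 and 74.8 CPM in rad6Δ (1.01 ± 0.10, adjusted p = 2.5e-08) and 112, 100.4 and 105.3 CPM in WT (0.67 ± 0.10, adjusted p = 5.91e-05). ERG25, for a methylsterol oxidase, averaged 369 ± 19.5 CPM in P47T, 211 ± 16.8 CPM in rad6Δ and 214 ± 7.64 CPM in WT. P47T was above both strains in these genes. ERG20, for farnesyl pyrophosphate synthetase, averaged 568 ± 7.002, 337 ± 3.82 and 557 ± 18.3 CPM in the same order, and did not pass against WT (0.03 ± 0.07, adjusted p = 0.782).

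Cell-cycle genes of the G1/S transition were more often higher than lower in P47T, 14 against 2 of 34 (median 0.27). HO, the mating-type switching endonuclease gene expressed in late G1, had 41.7, 40.8 and 30.5 CPM in P47T, against 6.33, 6.103 and 5.99 CPM in rad6Δ and 16.3, 17.2 and 14.1 CPM in WT. P47T stood above both, by 2.62 ± 0.15 (adjusted p = 1.13e-11) and 1.24 ± 0.13 (adjusted p = 6.23e-06). The G1 cyclin gene CLN2 had 38.4, 41.8 and 40.7 CPM in P47T, against 17.2, 19.7 and 18.5 CPM in rad6Δ (1.12 ± 0.09, adjusted p = 2.01e-09), and CLN1 30.7, 34.2 and 33.2 against 18.8, 21.6 and 18.5 CPM (0.72 ± 0.10, adjusted p = 4.71e-06). RNR1, for the large subunit of ribonucleotide reductase, averaged 163 ± 23.2 CPM in P47T, 65.2 ± 4.43 CPM in rad6Δ and 92.1 ± 1.26 CPM in WT. Later in the cycle, 13 of 26 genes of G2/M and mitotic exit rose and 2 fell (median 0.24), or 6 fell with library totals alone. CLB1, for a mitotic cyclin, had 107, 120.4 and 104 CPM in P47T, against 56.2, 54.9 and 60.2 CPM in rad6Δ (0.95 ± 0.09, adjusted p = 1.26e-08) and 61.04, 55.9 and 55.9 CPM in WT (0.94 ± 0.09, adjusted p = 8.84e-07). The daughter-cell wall gene DSE1 and the cyclin gene PCL9 rose against rad6Δ (0.78 and 0.95).

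Of 29 DNA damage genes 14 fell and 1 rose in P47T (median -0.11). The member that rose was CRT10 (0.24 ± 0.08, adjusted p = 0.019), a call lost without the third P47T library (adjusted p = 0.0728), without the third rad6Δ library (0.133) and with library totals alone (0.207). HUG1, for an inhibitor of ribonucleotide reductase induced by damage, had 1.34, 0.995 and 1.54 CPM in P47T, against 4.46, 5.23 and 5.04 CPM in rad6Δ (-1.94 ± 0.28, adjusted p = 7.14e-06) and 1.39, 1.32 and 1.32 CPM in WT. The checkpoint kinase gene DUN1 averaged 41.6 ± 1.37 CPM in P47T and 69.9 ± 1.58 CPM in rad6Δ, the checkpoint adaptor gene RAD9 69.1 ± 4.12 and 112 ± 11.7 CPM, and the recombination gene RAD54 26.5 ± 2.53 and 44.3 ± 2.87 CPM. None of these groups overlapped. RNR3, the damage-induced copy of RNR1, was lower by a smaller step (-0.41 ± 0.13, adjusted p = 0.0147), and the call was lost without the second P47T library (adjusted p = 0.0597) or the second rad6Δ library (0.0982). RAD18, the partner of Rad6 at replication forks, did not pass (-0.02 ± 0.10, adjusted p = 0.855).

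Meiosis and sporulation genes are largely silent in growing haploid cells, so some passed the filter on low counts only through the strain in which they were high. Of 61 listed, 52 passed, and of these 3 rose and 34 fell (median -0.81). Their levels were low, and with at least 10 CPM required in 3 libraries 16 were tested, 3 rose and 7 fell, with a median of -0.0029. REC8, for the meiotic cohesin subunit, had 6.59, 6.97 and 8.54 CPM in P47T, against 27.2, 24.5 and 25.1 CPM in rad6Δ (-1.81 ± 0.15, adjusted p = 2.01e-09) and 10.2, 9.49 and 10.2 CPM in WT. LOH1 had 2.1, 2.101 and 1.96 CPM in P47T, against 12.9, 14.6 and 14.8 CPM in rad6Δ (-2.77 ± 0.20, adjusted p = 3.23e-10). Each P47T value lay below each rad6Δ value. CDA1, for a chitin deacetylase of the spore wall, averaged 1.94 ± 0.166 CPM in P47T and 9.48 ± 0.397 CPM in rad6Δ. Weakly expressed PES4 and DPA10 were among the 10 largest decreases by the rule for named genes given below (-2.25 and -2.17). SPO11, for the nuclease that starts meiotic recombination, rose, at 14.8, 13.5 and 14.3 CPM in P47T, against 5.75, 5.58 and 5.72 CPM in rad6Δ (1.32 ± 0.18, adjusted p = 2.51e-06).

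Genes of the a mating type are repressed in alpha cells, and the same limit holds for them. Of 7 listed, 5 were tested and 4 fell, all at low levels: the a-agglutinin gene AGA2 averaged 0.577 ± 0.113 CPM in P47T and 2.72 ± 0.455 CPM in rad6Δ, and BAR1, for the protease that degrades alpha factor, 3.1 ± 0.652 and 7.95 ± 1.201 CPM (-1.35 ± 0.20, adjusted p = 1.21e-05). Alpha-specific genes were high in both strains, and 2 of 5 rose, SAG1 (0.46) and AFB1 (0.50). MF(ALPHA)1 ran from 1313 to 1888 CPM in P47T and from 1493 to 1729 CPM in rad6Δ and did not pass. Pheromone response genes moved both ways. Among those that rose were STE4, for the G protein beta subunit, KSS1, for a MAP kinase, and FAR1, for the arrest factor (0.84, 0.85 and 0.90). Among those that fell were PRM5 (-1.41 ± 0.08) and the fusion gene FUS2 (-1.26 ± 0.19). In all, 9 of 35 rose, close to the 25.9% of all genes, and 16 fell, against 26.4% of all genes.

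Cell surface genes moved both ways, 12 of 44 higher, close to the 25.9% of all genes, and 19 lower, against 26.4%. GSC2, for the stress-induced glucan synthase subunit, had 122, 117 and 96.2 CPM in P47T, against 320.0, 329 and 296 CPM in rad6Δ (-1.495 ± 0.14, adjusted p = 6.3e-08). CSS1 had 9.55, 9.29 and 5.18 CPM in P47T, against 44.6, 32.2 and 37.5 CPM in rad6Δ (-2.21 ± 0.25, adjusted p = 1.83e-06). GAS3, of a family of glucan-modifying enzymes, averaged 81.8 ± 13.9 CPM in P47T and 37.6 ± 6.18 CPM in rad6Δ (1.12 ± 0.15, adjusted p = 4.64e-06). The flocculin gene FLO1, with repeats shared by its family, fell (-1.13), and FLO11 did not pass (-0.34 ± 0.26, adjusted p = 0.279).

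Within 20 kb of a chromosome end, 135 of 158 genes were tested, 29 rose and 48 fell (median -0.17), beside 25.9% and 26.4% of all genes. With at least 10 CPM required in 3 libraries, 91 were tested, 27 rose and 27 fell, with a median of -0.05. IMD2, the nucleotide-regulated IMP dehydrogenase gene that may share reads with its copies, averaged 18.5 ± 4.01 CPM in P47T and 67.5 ± 5.099 CPM in rad6Δ (-1.85 ± 0.12, adjusted p = 7.22e-11). Of 35 proteasome genes 17 fell and 1 rose (median -0.16). The member that rose was RPN13 (0.28 ± 0.09, adjusted p = 0.00954), a call lost without the first P47T library (adjusted p = 0.0576) and with library totals alone (0.136). RPN5, of the regulatory lid, averaged 421 ± 44.3 CPM in P47T and 703 ± 38.8 CPM in rad6Δ (-0.74 ± 0.09, adjusted p = 1.39e-06), while RPN4, the activator of proteasome genes and not of this list, was higher (0.25 ± 0.09, adjusted p = 0.0186). GAL1 and SUC2, which glucose represses, did not pass (0.35 ± 0.24, adjusted p = 0.222 and -0.02 ± 0.08, adjusted p = 0.813). FMP48, for a putative protein kinase, and RGS2, for a regulator of glucose-sensing G protein signalling, were among the 10 largest increases (1.79 and 1.75). That ranking follows the rule for named genes given below.

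**Figure D4:**
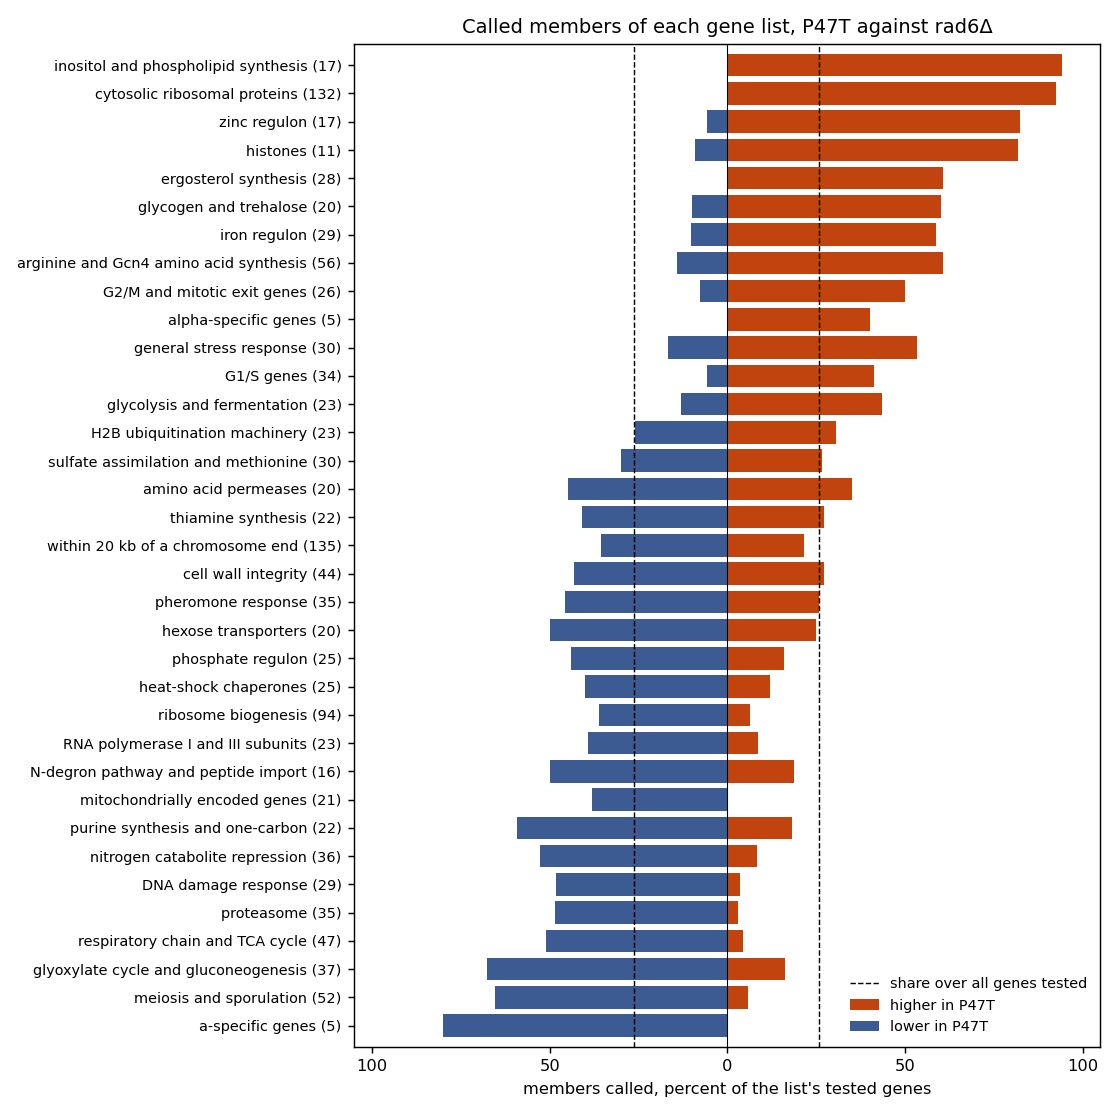
Percent of each list's tested genes (number in brackets) called higher (orange, to the right) or lower (blue, to the left) in P47T than in rad6Δ, with dashed lines at the shares over all genes, 25.9% and 26.4%. Inositol, ribosomal protein, zinc and histone genes have the longest bars to the right, and a-specific, meiosis and glyoxylate cycle genes the longest to the left.

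P47T was also tested directly against the other point mutants, with the same P47T libraries. Against P43L, 1743 genes (31%) passed the threshold, 918 (16.3%) higher and 825 (14.7%) lower in P47T. With library totals alone these were 563 and 1003. Ribosomal protein genes again were higher, 116 of 132, as were 70 of 94 ribosome biogenesis genes, with 0 and 0 lower. For ribosome biogenesis the count was 46 with library totals alone. Storage carbohydrate genes were lower, 17 of 20, and so were 25 of 47 respiratory genes, with 0 and 1 higher. ADH4 had 221, 206 and 209 CPM in P47T, against 75.7, 109 and 104.5 CPM in P43L (1.14 ± 0.16, adjusted p = 9.49e-05). INO1 had 886, 839.6 and 725 CPM in P47T, against 442, 357 and 443 CPM in P43L (0.98 ± 0.10, adjusted p = 7.66e-07). CLN1 averaged 32.7 ± 1.77 CPM in P47T and 18.98 ± 1.17 CPM in P43L (0.79 ± 0.10, adjusted p = 1.93e-05), and RFU1, for an inhibitor of the deubiquitinase Doa4, 12.5 ± 2.46 and 5.702 ± 0.974 CPM (1.13 ± 0.19, adjusted p = 0.000172). FUS2 was among the lowest, averaging 7.18 ± 1.18 CPM in P47T and 15.7 ± 2.55 CPM in P43L (-1.12 ± 0.19, adjusted p = 0.000225). RAD6 itself was higher in P47T than in P43L (0.36 ± 0.09, adjusted p = 0.00445), and its part in these differences was not tested.

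Against E49K, 1000 genes (17.8%) passed, 530 (9.41%) higher and 470 (8.35%) lower in P47T. These were 258 and 571 with library totals alone. Without the first E49K library 567 genes passed, and without the first P47T library 663. Iron genes were lower in P47T, 13 of 29, with 1 higher, as were 12 of 22 thiamine genes and 14 of 52 meiosis genes, with 1 and 3 higher. Without the first E49K or the first P47T library 8 meiosis genes were lower, and with at least 10 CPM required in 3 libraries 3. FIT2 had 103, 83.6 and 89.9 CPM in P47T, against 282, 251 and 275 CPM in E49K (-1.55 ± 0.10, adjusted p = 5.85e-10). THI4, of thiamine synthesis, had 4.77, 3.54 and 4.48 CPM in P47T, against 33.3, 32.8 and 29.4 CPM in E49K (-2.89 ± 0.15, adjusted p = 3.54e-11). CSS1 averaged 8.005 ± 2.45 CPM in P47T and 36.2 ± 1.87 CPM in E49K (-2.14 ± 0.25, adjusted p = 2.77e-05). Higher in P47T were HO (1.02 ± 0.13, adjusted p = 1.07e-05), the mitochondrial dicarboxylate carrier gene DIC1 (1.03 ± 0.10, adjusted p = 2.49e-07) and SPR6 (0.96 ± 0.22, adjusted p = 0.0044). Ribosomal protein genes were higher for 58 of 132, a count of 36 with library totals alone, 15 without the first E49K library, 32 without the third and 23 without the first P47T library.

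**Figure D5:**
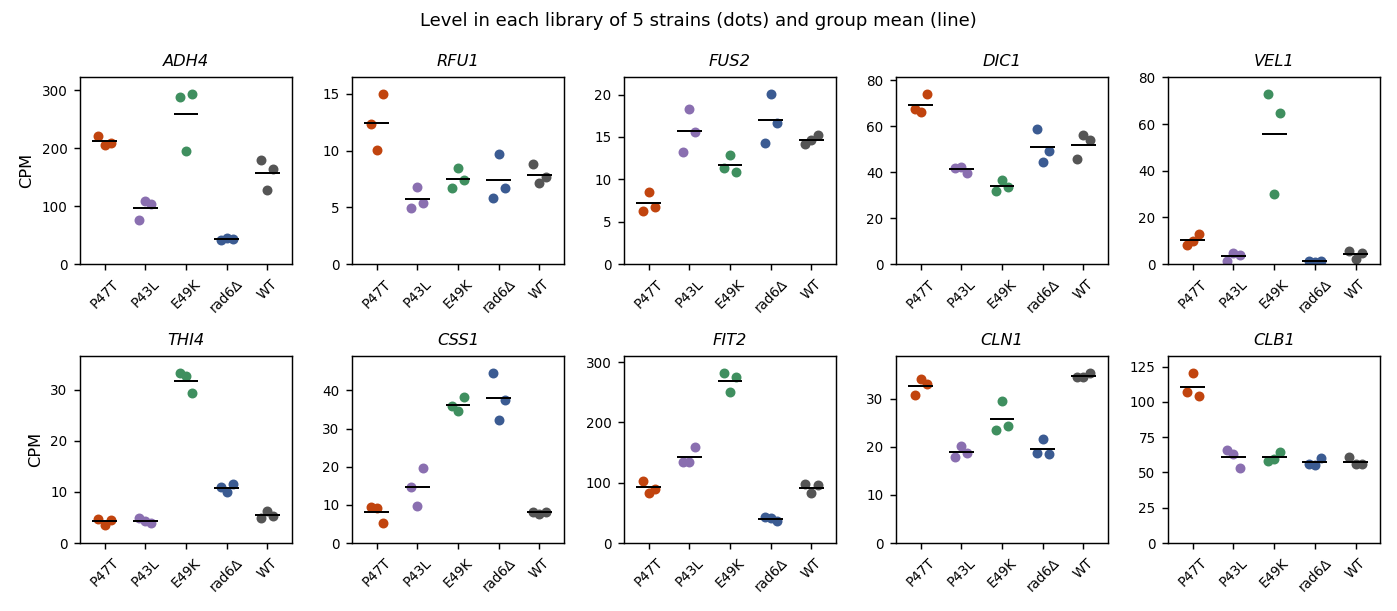
Level in CPM of 10 genes in each library (dots) with the group mean (line), for P47T, P43L, E49K, rad6Δ and WT from left to right, each panel with its own axis from 0. ADH4 in P43L lies between rad6Δ and P47T, THI4 is highest in E49K, and CLB1 is highest in P47T.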

How the data were processed

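Poly(A) RNA from 3 independent cultures per strain was sequenced as stranded libraries, per the labels' protocols. The submitters' processing notes name cutadapt 1.16, STAR 2.6.1b, Subread featureCounts 1.6.3 and DESeq2 1.20 with the R64 (sacCer3) genome. The deposited counts per gene are raw, and the treatment of strand and shared reads is not given in the sources used here, so paralogs and overlapping genes are uncertain. The deposited log2 values (the authors' regularized log) served only to check the columns. The 2 label protocols give different culture densities at harvest.

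From 5746 genes, 5630 passed filterByExpr. All 18 libraries entered 1 edgeR 4.0.16 quasi-likelihood model (TMM, robust, 12 residual degrees of freedom; R 4.3.3), with two-sided tests and Benjamini-Hochberg adjustment over all genes tested at 0.05. CPM are scaled by TMM, and n is 3 per strain throughout. Each standard error was derived from the test, as the size of the log2 fold change divided by the square root of its F statistic. The script was tested on simulated data. Gene positions come from RefSeq R64, to which 5633 of the IDs matched by locus tag and 90 by symbol. Library totals ran from 5065845 to 11396251 counts, and intervals between replicates cover culture and library spread together.

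Named genes are RAD6, the 10 highest and 10 lowest called genes at 10 CPM or more without overlap between groups, up to 4 called members of each list by adjusted p, 3 each way against P43L and E49K, and a fixed set. List extremes, regulators and some further members were named after their values were seen. The members and lists were chosen with earlier results of these data known. Same-numbered P47T and rad6Δ libraries deviated together (r = 0.203, 0.194 and 0.208 across genes), the labels saying nothing of shared days. The main fit has no replicate block, so its standard errors, adjusted p and counts do not use this pairing. Fits with the replicate number as a block are given as alternatives. Alternatives were RLE size factors, library totals alone, 2 other filters, DESeq2 1.42.0, fits to fewer libraries or to nuclear open reading frames, a replicate block and leaving out each library.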

Additional observations from a re-analysis of the deposited data

How the results depend on the processing

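The count of genes called between P47T and rad6Δ was 2924 with RLE size factors, 2939 without the low-count filter, 2738 with at least 10 CPM in 3 libraries, 2897 with DESeq2, 2946 from the 6 libraries alone and 2923 for nuclear open reading frames. The stricter filter left 91 genes at least 2-fold lower, against 214, because it tests fewer weakly expressed genes. With it the median log2 fold change was 0.10 for the sulfate and methionine list, against -0.10, 0.14 for the thiamine list, against -0.38, and -0.0029 for the meiosis list, against -0.81. With library totals alone P47T had 407 genes higher and 1297 lower than WT, 563 higher than P43L and 258 higher than E49K, and the cause was not tested. Leaving out 1 library gave 2615 to 2738 genes against rad6Δ, 959 to 1596 against WT (higher 507 to 821, lower 452 to 775), 1253 to 1718 against P43L and 567 to 815 against E49K (higher 279 to 437, lower 288 to 378). The lowest counts against WT were without the first P47T library (959) and the second (1017), and against E49K without the first E49K library (567) and the first P47T library (663). With the replicate block the count against rad6Δ was 2867 from all libraries and 3251 from the 6 alone (added after seeing the data), and among named genes only the calls of COB and BI4 changed. Same-numbered libraries did not pair P47T with WT, P43L or E49K, where the block gave 1433, 1651 and 884 genes. Over all alternatives, 2942 values of named genes stayed on their side of the threshold, 16 lost their call and 10 gained one. Calls lost included those of CRT10, GLT1 and RPN13 with library totals alone. Genes near 1 CPM are limited by depth.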
